A study of Mus musculus with 4 samples.

Results

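The genes described here are 45 members of the Wnt pathway, taken by name from a table of 23420 genes: 12 Wnt ligands, 9 Frizzled receptors, 5 co-receptors, 7 secreted modulators, and 12 genes of ligand acylation, receptor turnover, β-catenin and the TCF/LEF factors. They were measured by RNA-seq in myeloid cells that carry CD11b and the CD200 receptor CD200R1 and that were sorted from orthotopic cutaneous squamous cell carcinomas (cSCC) of FVB/N mice. Of the 4 libraries, 2 came from WT (wild type) tumours that carry CD200 and 2 from EpiKO tumours that lack it, with the genotype K14Cre;CD200fl/fl, in which Cre is driven by the keratin 14 promoter of squamous epithelium. The labels do not say whether WT tumours carry K14Cre, so loss of CD200 and presence of Cre cannot be told apart. Cd200 itself, the targeted gene, was at 92.7 and 59.7 in WT against 17.2 and 15.1 in EpiKO, and the sorted receptor gene Cd200r1 at 318 and 293 against 1101 and 612. Neither passed the test described below. The sources used here do not give age or sex, nor whether a library came from 1 mouse or a pool, so p-values measure only the spread between these libraries, which may be technical. All values are normalised read counts unless a level per length is named.

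Wnt proteins are secreted lipid-modified ligands. They bind a Frizzled receptor together with a co-receptor. In the canonical branch this stops a scaffold built on Axin from destroying β-catenin, which then acts with TCF/LEF factors on target genes such as Axin2, whereas in other branches Wnt5a and Ror2 signal without β-catenin. In tissues, macrophages are known both as a source of Wnt ligands and as cells that respond to them.

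Of the 45 members, 18 were silent, which means a value below 10 in at least 3 of the 4 libraries, and 27 were above that limit. The same rule was met by 40.0% of the members and by 10957 of all 23420 genes (46.8%). The members were picked with earlier results of these data known, so their share describes this list and not the Wnt family as a whole. The 27 described members are also the members that entered the test, since the test kept a gene only where 2 or more libraries reached 10. Just inside the limit lay Fzd3, at 11.6 and 5.04 in WT against 3.23 and 1.89 in EpiKO, and Dkk2, at 12.7 and 9.25 in WT against 7.54 and 5.67 in EpiKO. Just outside lay Wnt6, which passed through EpiKO alone, and Fzd8, which passed through WT alone, so that these 2 genes had to differ between the groups to be kept.

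EpiKO was compared with WT by limma across 12463 genes, with Benjamini-Hochberg adjustment over all of them, and 118 genes (0.947%) were called at an adjusted p under 0.05, of which 52 (0.417%) were higher and 66 (0.530%) lower in EpiKO. Of the 27 described members, 3 rose in EpiKO and none fell: the ligands Wnt7b and Wnt5a and the receptor Fzd7. The other 24 did not pass. At an unadjusted p under 0.05 there were 9 members (33.3%), 7 higher and 2 lower, where 15.6% of all tested genes had such a p, 8.07% higher and 7.57% lower. The groups did not overlap for 12 members (44.4%) that were higher and 6 (22.2%) that were lower in EpiKO, against 23.3% and 23.8% of all tested genes. The 12 include Wnt6 and the 6 include Fzd8, for which the filter fixed in advance that the groups do not overlap. Wnt6 is also among the 7 higher members with an unadjusted p under 0.05. Because the members were picked with earlier results of these data known, these shares and the median that follows are a description and not a test. The median log2 fold change of the described members was 0.34, against -0.0021 over all tested genes, and 19 were positive and 8 negative. This median was 0.66 without WT replicate 1, 0.11 without WT replicate 2, 0.43 without EpiKO replicate 1 and 0.18 without EpiKO replicate 2. For a single gene, permuting 2 against 2 libraries exactly has a smallest p of 0.333. In a mixed sample, fewer cells of a type and less RNA per cell cannot be told apart.

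**Figure D1:**
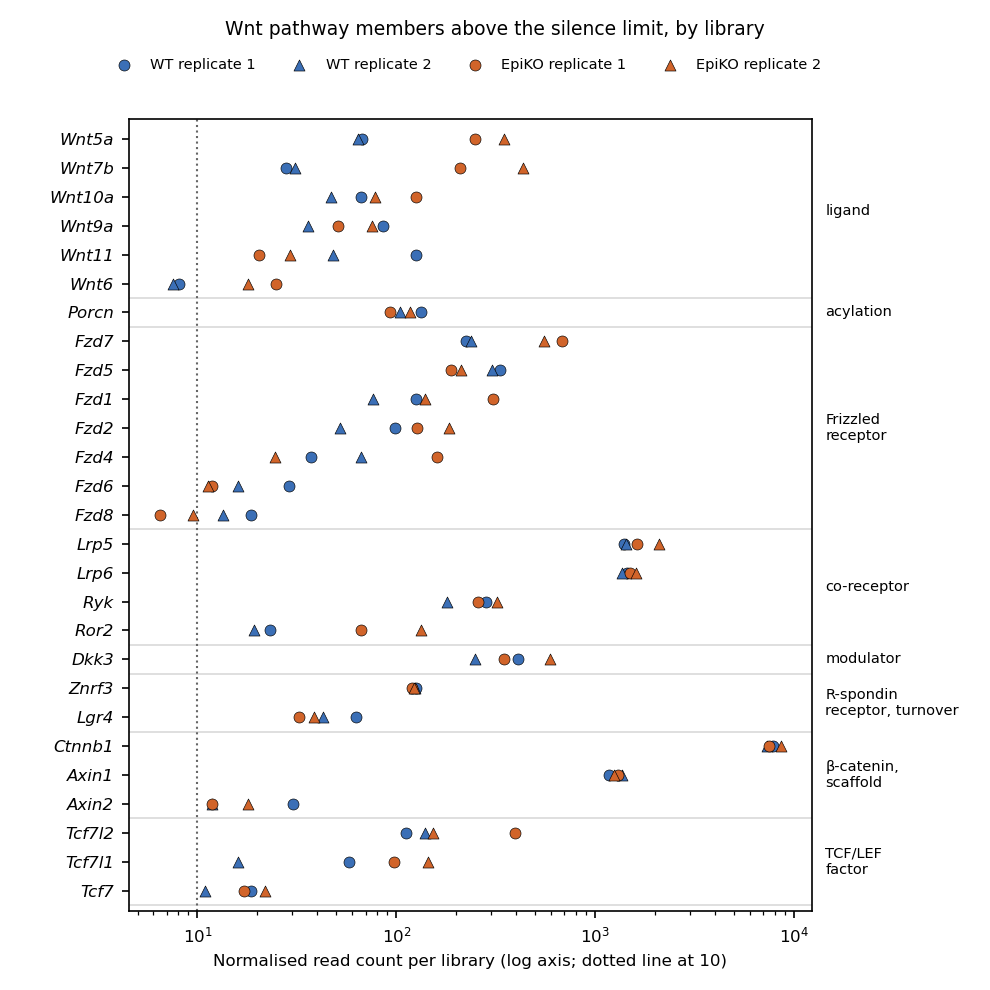
Normalised read counts (log axis) of the 27 members above the silence limit in each library, grouped by role, with WT in blue and EpiKO in orange, circles for replicate 1 and triangles for replicate 2. Both EpiKO libraries lie to the right of both WT libraries for Wnt7b, Wnt5a, Fzd7 and Ror2, while Ctnnb1, Axin1, Lrp6 and Znrf3 hold their 4 points close together.

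Transcripts that mark other cell types were present in these libraries, and their lists are given here beside the members. Whether any member varies with them was not tested. Macrophage genes were abundant throughout, with Itgam, which encodes CD11b, between 26151 and 40692. Summed over 16 fibroblast markers, the value was 47744 and 32639 in WT against 26171 and 42960 in EpiKO, led by Col3a1, Postn and Col1a1, with none of the 16 at 0. The list did not move one way: both EpiKO libraries lay above both WT libraries for 4 of the 16 and below them for 3. Pdgfra, one of these 4 and named after its value was seen, was at 484 and 471 in WT against 723 and 1014 in EpiKO. Of the 27 described members, 17 (63.0%) were higher in WT replicate 1 than 2 and in EpiKO replicate 2 than 1, against 28.02% of all tested genes and 33.4% of those with a mean value of 10 to 500. This library order was taken from the values of the members themselves, so their share is a description and not a test. The sums of 6 of the 12 marker lists had this library order too. They were the fibroblast, keratinocyte, endothelial and B cell lists, the dendritic list at 35033 and 12234 in WT against 10159 and 23150 in EpiKO, and the T and NK cell list at 2390 and 922 against 707 and 1338. Gene by gene, the order held for 14 of 16 fibroblast and 7 of 11 dendritic markers. It held for only 5 of 18 keratinocyte, 5 of 12 endothelial, 4 of 15 T and NK cell and 3 of 6 B cell markers. The pericyte and smooth muscle sum lacked the order, though 7 of its 8 genes had it. Of the 15 macrophage markers in the table, 6 had this order, among them C1qa at 83576 and 62908 against 52683 and 80217. The macrophage sum did not have it. The sum of 8 simple epithelial markers was 1292 and 649.8 in WT against 7154 and 5936 in EpiKO. It came from Krt8, Krt18 and Cdh1, while Epcam was at 6.46 and 7.56 in EpiKO and Cldn7 at 0 in every library. The 18 keratinocyte markers summed to 8356 and 4743 in WT and 2599 and 2954 in EpiKO, most of it from Itga6, an integrin that other cell types express too, outside WT replicate 1. Without Itga6 the sums were 5880 and 169 against 192 and 201, so WT replicate 1 alone stood apart. Their keratins stood out in WT replicate 1, with Krt5 at 736 there and between 5.04 and 7.56 in the other 3 libraries. The part of these transcripts in the results below was not tested.

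The promoters shown belong to the members on which the comparison turns and for which RefSeq windows on GRCm38.p6 (mm10) were at hand: Fzd7, which rose, Ror2, the co-receptor with the next smallest p, Wnt11, the ligand with the lowest log2 fold change, and Axin2, the standard target gene of the canonical branch. Each window runs from 250 bases before to 50 bases after the start site, and 29 of the 45 members matched at least 1 of 39 windows. Wnt7b and Wnt5a did not match. Capitals mark matches to the TCF/LEF motif CTTTGAT, the AP-1 motif TGANTCA or the TATA box letters TATAAA, searched on both strands, and no 2 matches overlap in these windows.
Fzd7, chr1:59481897-59482196, plus strand: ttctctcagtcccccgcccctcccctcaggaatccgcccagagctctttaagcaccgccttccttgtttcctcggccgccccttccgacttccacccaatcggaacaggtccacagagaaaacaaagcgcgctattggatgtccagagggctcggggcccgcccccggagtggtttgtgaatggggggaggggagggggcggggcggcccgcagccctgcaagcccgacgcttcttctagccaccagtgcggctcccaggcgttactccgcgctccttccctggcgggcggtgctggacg
Ror2, chr13:53286075-53286374, minus strand: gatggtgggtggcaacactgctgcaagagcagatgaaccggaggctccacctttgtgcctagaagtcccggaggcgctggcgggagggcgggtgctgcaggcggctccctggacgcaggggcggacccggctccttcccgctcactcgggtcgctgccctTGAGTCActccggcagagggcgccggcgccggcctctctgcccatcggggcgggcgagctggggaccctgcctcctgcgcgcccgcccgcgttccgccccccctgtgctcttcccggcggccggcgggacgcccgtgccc
Wnt11, chr7:98834862-98835161, plus strand: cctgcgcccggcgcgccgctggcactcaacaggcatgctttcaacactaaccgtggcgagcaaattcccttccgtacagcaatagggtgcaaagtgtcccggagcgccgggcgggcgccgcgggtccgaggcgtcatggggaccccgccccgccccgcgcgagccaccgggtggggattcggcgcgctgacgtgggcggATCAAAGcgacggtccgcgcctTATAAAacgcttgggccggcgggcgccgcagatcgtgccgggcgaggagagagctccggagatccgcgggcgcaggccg
Axin2, chr11:108920099-108920398, plus strand: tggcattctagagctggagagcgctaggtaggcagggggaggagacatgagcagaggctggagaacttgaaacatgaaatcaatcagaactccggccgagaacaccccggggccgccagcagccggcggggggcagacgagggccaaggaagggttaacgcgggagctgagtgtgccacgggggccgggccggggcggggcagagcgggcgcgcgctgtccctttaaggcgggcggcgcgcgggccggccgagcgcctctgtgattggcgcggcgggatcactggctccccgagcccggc
The Wnt11 window held a reverse-strand TCF/LEF match that begins 51 bases before the start site and a TATA box 29 bases before it. The Ror2 window held an AP-1 match 90 bases before the start site. Fzd7 and Axin2 held none of the 3 motifs in these windows. The Fzd7 window, set by its RefSeq start site, ends at base 59482196. That lies before the start of Fzd7 in GENCODE M21, at base 59482424, so the bases around that start were not searched. Over all members, the TCF/LEF letters were in 2 of 39 windows (5.13%), against 3.73% of all 32851 windows, and the AP-1 letters in 2 of 39, against 7.81%. The TATA letters were in 9 of 39 (23.1%), against 13.6%. A match is a description of the letters, not a binding site.

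Wnt7b, a ligand that in mice signals through β-catenin in several epithelia and vessels, was at 27.8 and 31.1 in WT against 210 and 435 in EpiKO. Both EpiKO libraries stood far above both WT libraries, and the EpiKO libraries themselves differed 2.07-fold. The mean rose from 29.5 ± 2.32 to 322 ± 159 (SD, n = 2), about 10.9 times, and the log2 fold change on the log2(value + 1) scale was 3.32 (SE 0.392, 95% interval 2.32 to 4.32, adjusted p = 0.0471 by limma). In mm10 Wnt7b occupies bases 85535437 to 85582473 of chromosome 15, minus strand (GENCODE M21). It shares exon sequence with AU022754 on the other strand, which had between 0 and 7.54 in the 4 libraries. Wnt5a, Wnt11, Fzd5, Fzd6, Sfrp2, Axin2, Lef1, Tcf7l1 and Ctnnb1 also have exon overlap on the other strand, and without a known strand setting the reads of such partners cannot be told apart.

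Wnt5a, the best known ligand of the β-catenin independent branch, was at 67.2 and 63.9 in WT against 248 and 348 in EpiKO. The groups were widely separated, and the 2 WT libraries were nearly equal. Its mean rose from 65.6 ± 2.36 to 298 ± 70.8 (SD, n = 2), 4.54 times, and limma gave a log2 fold change of 2.15 (SE 0.236, 95% interval 1.55 to 2.75) at an adjusted p of 0.0425. Wnt5a is also made by fibroblasts. In EpiKO replicate 1, where Wnt5a was above both WT libraries, 4 of the 16 fibroblast markers were above both WT libraries too, 7 were below both and 5 lay between. The part of fibroblasts in it was not tested. It occupies bases 28504750 to 28527448 of chromosome 14, plus strand, with exon overlap to Gm2670 on the other strand, for which no value was used here.

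The calls for Wnt7b, Wnt5a and Fzd7 were lost in several other fits. Without any 1 library, WT replicate 1 or 2 or EpiKO replicate 1 or 2, the adjusted p by limma lay between 0.0972 and 0.234 for Wnt7b, between 0.104 and 0.198 for Wnt5a and between 0.0840 and 0.198 for Fzd7. The log2 fold changes then lay between 2.79 and 3.84, between 1.90 and 2.39, and between 1.26 and 1.55. With all libraries but no trend in limma, none of the 3 was called (adjusted p between 0.0731 and 0.0923), and after quantile normalization Wnt7b was not (adjusted p = 0.0508 by limma). On recovered reads, the 3 genes were called by edgeR (adjusted p between 0.0418 and 0.0456, where 0.963% of genes were called, 0.433% higher and 0.530% lower) and by DESeq2 (adjusted p between 4.19e-11 and 2.12e-07, where 6.85% were called, 3.73% higher and 3.12% lower).

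Among the other ligands none passed. Wnt6 was at 8.11 and 7.57 in WT against 24.8 and 17.96 in EpiKO, which is 7 and 9 reads against 23 and 19. Wnt10a, a ligand best known from skin and hair follicles, was at 66.1 and 47.1 in WT against 125 and 78.4 in EpiKO , and limma put its log2 fold change at 0.82 (SE 0.345, adjusted p = 0.3498). Wnt10a was higher in both EpiKO libraries, with a gap small beside its spread. Wnt6 was higher in both too, but it passed the filter through EpiKO alone, which fixed that direction in advance. Wnt11, a β-catenin independent ligand in most settings, went the other way, at 125 and 47.9 in WT against 20.5 and 29.3 in EpiKO. Limma put it at -1.62 on the log2 scale (SE 0.537, adjusted p = 0.245), and without WT replicate 1 it was -0.94. Wnt9a was at 85.8 and 36.1 in WT against 50.6 and 75.6 in EpiKO, so the groups overlapped fully.

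The remaining 6 ligands were silent. Wnt7a, the closest relative of Wnt7b, had no read in any library, where a count of 0 allows up to 3 reads, a value of 2.52 to 3.48. Wnt5b, the closest relative of Wnt5a, had 6 and 6 reads in WT against 3 and 10 in EpiKO. Wnt2, Wnt2b and Wnt10b had between 0 and 10 reads per library. Wnt4 had 8 reads in WT replicate 1, the library with high keratinocyte keratins, none in WT replicate 2, and 1 and 0 in EpiKO. The 7 Wnt genes outside the 45 members, the ligand Ndp and the 4 R-spondins were silent as well, with a highest value of 5.04.

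To compare ligands with each other, reads were divided by exon length and by depth (RPKM, below called the level per length). Summed over the 12 ligands this level was 5.82 and 3.55 in WT against 8.56 and 11.5 in EpiKO. In WT the order was Wnt10a at 1.26 ± 0.273, Wnt11 at 1.15 ± 0.704 and Wnt9a at 1.00 ± 0.560 (SD, n = 2), which do not differ beyond their spread, with Wnt5a at 0.462 ± 0.00669 and Wnt7b at 0.332 ± 0.0333 below them. In EpiKO it was Wnt7b at 3.57 ± 1.82, Wnt10a at 2.22 ± 0.679 and Wnt5a at 2.06 ± 0.527, again within their spread, followed by Wnt9a at 1.03 ± 0.306. Wnt7b made up 5.30% and 10.03% of the ligand level in WT and 26.7% and 42.3% in EpiKO. The share of Wnt11 was 28.2% and 18.3% in WT and 3.08% and 3.38% in EpiKO, so that for both genes the shares of the groups did not overlap.

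**Figure D2:**
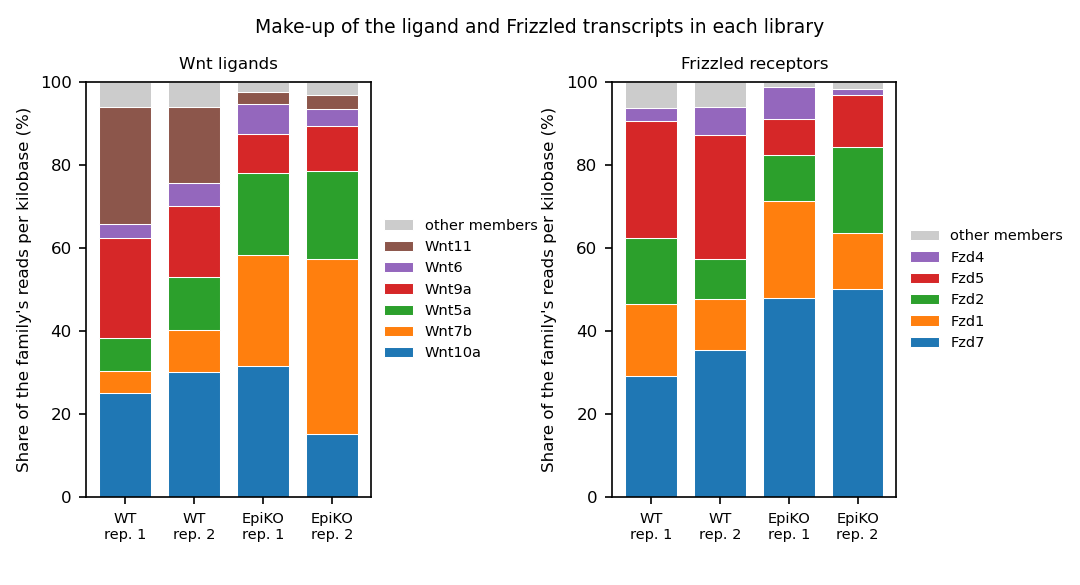
Share (%) of each gene in the summed level per length of its family in every library, with Wnt ligands on the left and Frizzled receptors on the right; genes under 5% in all libraries are pooled in grey. Wnt7b grows from at most 10.03% in WT to 26.7% and 42.3% in EpiKO while Wnt11 shrinks, and among the receptors Fzd7 grows to 48.03% and 50.03% while Fzd5 shrinks to 8.73% and 12.6%.

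Porcn, the enzyme that attaches the lipid every Wnt ligand needs, was at 133 and 104 in WT against 92.6 and 117 in EpiKO. The groups overlapped, and its log2 fold change was -0.18 (95% interval -0.81 to 0.46 by limma). Wls, the carrier that takes Wnt proteins to the cell surface and not one of the 45 members, was at 2574 and 2043 in WT against 2689 and 3235 in EpiKO.

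Fzd7, a receptor used in both branches, was at 225 and 237 in WT against 679 and 553 in EpiKO. Both EpiKO libraries were far above both WT libraries, which were close together. The mean rose from 231 ± 8.61 to 616 ± 89.4 (SD, n = 2), 2.67 times, which limma put at 1.40 on the log2 scale (SE 0.154, 95% interval 1.01 to 1.80, adjusted p = 0.0425). Unlike Wnt5a, Fzd7 was higher in EpiKO replicate 1 than in EpiKO replicate 2. In mm10 it occupies bases 59482424 to 59486955 of chromosome 1, plus strand, and no other annotated gene overlaps its exons.

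Fzd5, a receptor for Wnt5a in human macrophages, was at 331 and 304 in WT against 188 and 213 in EpiKO. Both EpiKO libraries were lower, and the spread within each group was small. Its log2 fold change was -0.66 (SE 0.156, 95% interval -1.06 to -0.27) and did not pass, at an adjusted p of 0.138 by limma. Fzd2 was at 98.5 and 52.1 in WT against 127 and 183 in EpiKO, and Fzd1 at 125 and 76.5 against 305 and 140. Both were higher in EpiKO with a small gap between the groups, and neither passed (adjusted p = 0.276 and 0.361 by limma). Fzd2 had the library order that 6 marker sums share, whereas Fzd1 was highest in EpiKO replicate 1.

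Fzd4, a receptor prominent in vessels, was the least reproducible described member, at 37.1 and 66.4 in WT against 160 and 24.6 in EpiKO. The 2 EpiKO libraries, 6.53-fold apart, enclosed both WT libraries, so no direction can be read. The 12 endothelial markers summed to 461 and 326 in WT against 397 and 448 in EpiKO, the opposite order to Fzd4 within both groups. Gene by gene, 5 of the 12 had the order of their sum. The part of endothelial cells in the Fzd4 values was not tested. Fzd6 and Fzd8 were near the limit, at 29.0 and 16.0 against 11.8 and 11.3, and at 18.5 and 13.4 against 6.46 and 9.45, and neither passed (adjusted p = 0.507 and 0.486 by limma). Fzd3 and Fzd9 were silent. Fzd9 had 1 and 8 reads in WT and none in EpiKO. With the reads of each group pooled, its WT over EpiKO ratio had an exact binomial lower 95% limit of 1.91, which covers counting error only and not the spread between libraries. Fzd3 had 16 reads in WT and 5 in EpiKO, a WT over EpiKO ratio of 3.10 (exact binomial 95% interval 1.08 to 10.8, counting error only).

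By level per length, Fzd7 at 2.81 ± 0.166 and Fzd5 at 2.53 ± 0.0987 (SD, n = 2) were the leading Frizzled genes in WT, with Fzd7 the higher of the pair in both libraries. In EpiKO Fzd7 led at 7.34 ± 0.934, ahead of Fzd1 at 2.85 ± 1.45, Fzd2 at 2.30 ± 0.629 and Fzd5 at 1.57 ± 0.162. The share of Fzd7 in the Frizzled level was 29.1% and 35.5% in WT, and 48.03% and 50.03% in EpiKO. That of Fzd5 was 28.1% and 29.8%, and then 8.73% and 12.6%. These shares describe 2 libraries a group and were not tested.

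**Figure D3:**
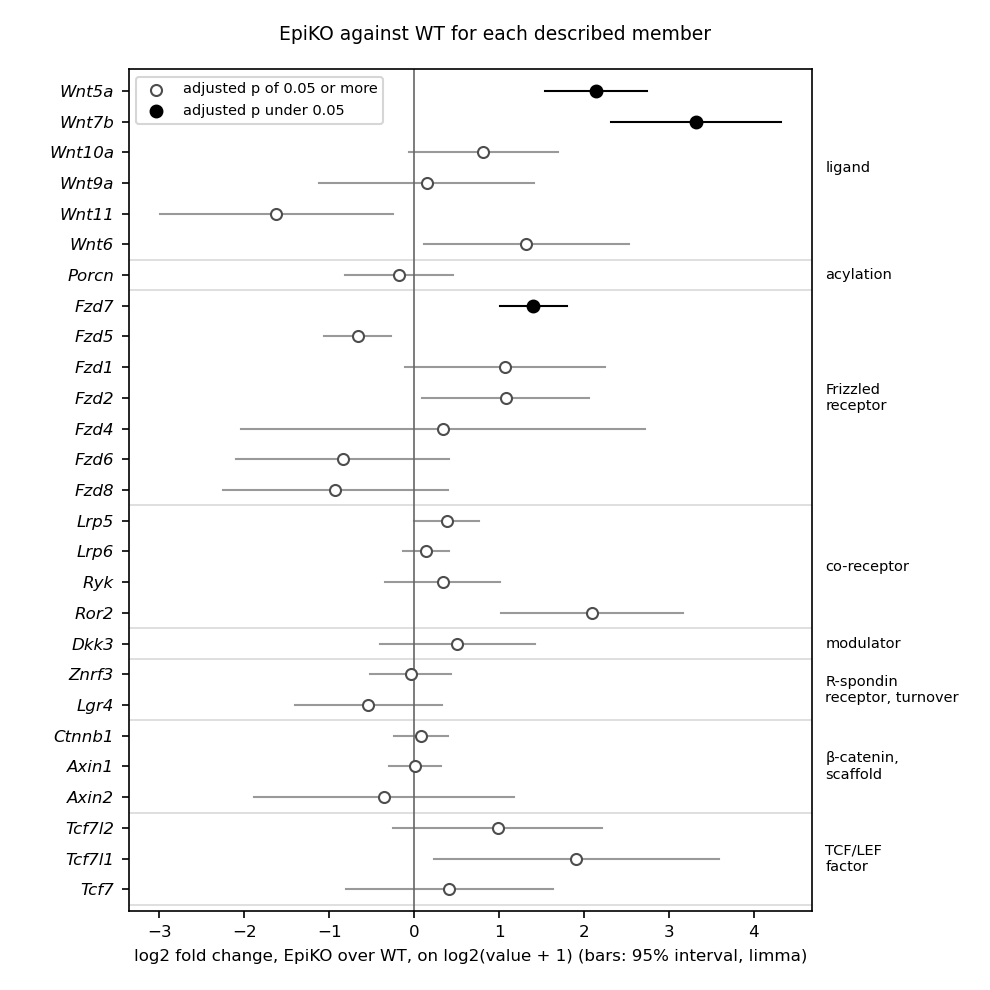
Log2 fold change of EpiKO over WT, on the log2(value + 1) scale, with 95% limma intervals for the 27 described members, grouped by role; filled points have an adjusted p under 0.05. Wnt5a, Wnt7b and Fzd7 are the 3 filled points, at 2.15, 3.32 and 1.40, and the narrow intervals around 0 belong to Lrp6, Ctnnb1 and Axin1.

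Ror2, the tyrosine kinase co-receptor that pairs with Wnt5a, was at 23.2 and 19.3 in WT against 66.7 and 132 in EpiKO. The groups did not overlap, but the EpiKO libraries differed 1.98-fold. It was 4.68 times higher in the mean, with a log2 fold change of 2.10 (SE 0.422, 95% interval 1.03 to 3.17), and did not reach a call (adjusted p = 0.105 by limma). DESeq2 called it at an adjusted p of 0.00297, and edgeR did not (0.0997). In mm10 it occupies bases 53109312 to 53286124 of chromosome 13, minus strand, again with no overlapping exon. Its relative Ror1 was silent, with 3 and 5 reads in WT against 1 and 5 in EpiKO.

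The LDL receptor family co-receptors of the canonical branch were abundant in every library. Lrp5 was at 1394 and 1428 in WT against 1615 and 2094 in EpiKO, and Lrp6 at 1449 and 1369 against 1501 and 1602. Both genes were higher in both EpiKO libraries, by a little. Their log2 fold changes were 0.38 (95% interval -0.0067 to 0.77) and 0.14 (95% interval -0.13 to 0.41) by limma, so for Lrp6 these data allow a change of at most 0.41 on the log2 scale. Ryk, a Wnt-binding pseudokinase, was at 284 and 181 in WT against 256 and 319 in EpiKO, with overlapping groups.

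Secreted modulators were low apart from Dkk3. Of 7 members, 6 were silent, and Frzb and Wif1, both of which bind Wnt ligands outside the cell, had no read in any library. Sfrp4 had 4 and 3 reads in WT and none in EpiKO. With the reads of each group pooled, its WT over EpiKO ratio had an exact binomial lower 95% limit of 1.40, which covers counting error only and not the spread between libraries. Sfrp1 had 5 and 3 reads against 1 and 0, and Sfrp2, typical of dermal fibroblasts, 6 and 6 against 2 and 3. Dkk3, a Dickkopf relative that does not bind LRP5 and LRP6 as the others do, was the exception, at 410 and 250 in WT against 350 and 594 in EpiKO. It overlapped between the groups (95% interval of the log2 fold change by limma -0.40 to 1.42) and had the library order shared by the fibroblast and 5 other marker sums. Dkk2, in contrast, had 11 and 11 reads in WT against 7 and 6 in EpiKO.

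**Figure D4:**
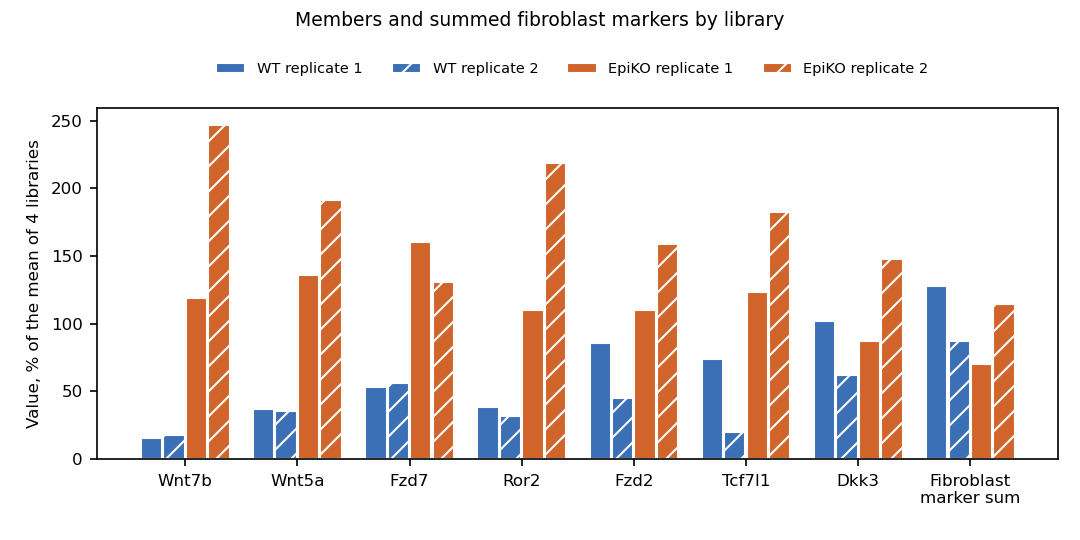
Value of 7 members and of the summed 16 fibroblast markers in each library, as a percentage of the mean over the 4 libraries; solid bars are replicate 1 and hatched bars replicate 2. The fibroblast sum is highest in WT replicate 1 (128%), where Wnt7b is at 15.8% and Wnt5a at 37.0%. Dkk3, at 102%, 62.2%, 87.2% and 148%, has the same library order as the sum within each group. The sum joins markers that go different ways, with both EpiKO libraries above both WT libraries for 4 of the 16 and below them for 3. The part of fibroblasts in these values was not tested.

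Genes of receptor turnover showed no call. Znrf3, a ubiquitin ligase that removes Frizzled receptors from the cell surface, was the steadiest member, at 125.2 and 124.4 in WT against 119 and 123 in EpiKO (log2 fold change -0.042, 95% interval -0.52 to 0.44 by limma). Lgr4, the R-spondin receptor that counteracts it, was at 62.6 and 42.9 in WT against 32.3 and 38.7 in EpiKO, lower in both EpiKO libraries without passing (adjusted p = 0.546 by limma). The related Rnf43 and Lgr5 were silent. Lgr5, a stem cell marker and target gene, had 5 and 5 reads in WT and none in EpiKO. With the reads of each group pooled, the WT over EpiKO ratio had an exact binomial lower 95% limit of 2.1701. That limit covers counting error only and not the spread between libraries.

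β-catenin itself, Ctnnb1, was the most abundant member, at 7823 and 7335 in WT against 7494 and 8574 in EpiKO. The groups overlapped, and the interval of its log2 fold change, -0.24 to 0.40 by limma, leaves room for a change of up to 0.40. Its level per length was 80.5 ± 1.93 in WT and 83.8 ± 9.47 in EpiKO (SD, n = 2). Axin1, the scaffold of the destruction complex, came next by level per length, at 18.3 ± 2.26 and 18.04 ± 0.227. Its values were 1180 and 1363 in WT against 1305 and 1249 in EpiKO, and its log2 fold change had an interval from -0.29 to 0.31.

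Axin2, the target gene whose promoter is shown above, was low, at 30.1 and 11.8 in WT against 11.8 and 17.96 in EpiKO, which is 26, 14, 11 and 19 reads. The groups overlapped, and the interval of the log2 fold change ran from -1.88 to 1.18 by limma, so at this depth the interval includes both a rise and a fall of 2-fold. Among the other members, the target genes Lgr5, Rnf43, Lef1 and Tcf7 were silent or near the limit. Outside the members, 17 further target genes were listed and 10 tested, of which none was called, 5 were positive and the median log2 fold change was 0.40. At an unadjusted p under 0.05, Apcdd1, Jag1 and Ascl2 were higher and Myc lower, at 1.46, 1.06, 2.08 and -0.51 on the log2 scale. Over all tested genes, 8.07% were higher and 7.57% lower at such a p, and the median log2 fold change was -0.0021. Jag1, Ascl2 and Myc were chosen for naming after their values were seen. Ascl2 passed the filter through EpiKO alone, so it had to be higher there to be kept. The other 7, among them Nkd1, Notum and Sp5, were silent, with a highest value of 7.56.

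Of the TCF/LEF factors, Tcf7l1 and Tcf7l2 carried most of the transcripts. Tcf7l1, mostly a repressor in the absence of β-catenin, was at 58.0 and 16.0 in WT against 96.9 and 144 in EpiKO. Both EpiKO libraries were higher, but the WT libraries differed 3.63-fold, and the limma estimate of 1.91 on the log2 scale (SE 0.649, adjusted p = 0.262) was 1.01 without WT replicate 2. Tcf7l1 had the same library order as these 6 marker sums. Tcf7l2 was at 111 and 139 in WT against 397 and 153 in EpiKO, so that EpiKO replicate 1 alone stood apart (limma estimate 0.98 on the log2 scale, adjusted p = 0.414, and 0.30 without that library).

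Tcf7 and Lef1, the factors typical of T cells, were low. Tcf7 was at 18.5 and 10.9 in WT against 17.2 and 21.7 in EpiKO. Lef1 was silent by the rule, with 5 and 6 reads in WT, 6 in EpiKO replicate 1 and 38 in EpiKO replicate 2. The 15 T and NK cell markers in the table summed to 707 in EpiKO replicate 1 and 1338 in EpiKO replicate 2, with Cd4 at 100.1 and 893 and Lck at 12.9 and 21.7. Il7r, after Cd4 the highest of the 15, went the other way, at 496 and 282 in these EpiKO libraries. The T cell receptor genes Cd3d, Cd3e and Cd3g were at 0 in both. The part of such cells in the Lef1 reads was not tested.

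Beyond the members, 135 pathway genes were listed, of which 134 were in the table and 96 were tested. None was called higher and 2 (2.08%) were called lower, Nfatc1 and Plcb4, both of the calcium branch, where 0.530% of all tested genes were called lower. Nfatc1, a calcium-dependent transcription factor, was at 5465 and 6357 in WT but 1804 and 2057 in EpiKO (log2 fold change -1.61, SE 0.136, adjusted p = 0.0334 by limma). Plcb4, a phospholipase C, was at 170 and 219 but 50.6 and 47.3 (log2 fold change -1.96, SE 0.239, adjusted p = 0.0471 by limma). At an unadjusted p under 0.05 there were 14 (14.6%) higher and 7 (7.29%) lower, against 8.07% and 7.57% of all tested genes, and the median log2 fold change of the 96 was 0.036. The 14 include Gpc6, Lgr6 and Ascl2, which passed the filter through EpiKO alone and so had to be higher there. These lists too were drawn up with earlier results of these data known, so their shares are a description and not a test. Of the 96, edgeR called 3, Gpc6 higher and Nfatc1 and Plcb4 lower, and DESeq2 called 9, 4 higher and 5 lower. After quantile normalization Gpc6 was called higher and Plcb4 was not called. Without any 1 library none was called by limma.

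The tested genes with the smallest p in each other list follow. Gpc6, a glypican that binds growth factors and Wnt ligands, was at 5.80 and 0.841 in WT against 127 and 169 in EpiKO, at an adjusted p of 0.0533 by limma. It was called higher with a pseudocount of 5, without a filter, after quantile normalization, and by edgeR and DESeq2. The R-spondin receptor Lgr6 was at 2.32 and 0.841 against 18.3 and 21.7. Gpc6 and Lgr6 passed the filter through EpiKO alone, so they had to be higher there to be kept. Apcdd1, a membrane-bound inhibitor, was at 264 and 116 in WT against 448 and 519 in EpiKO, Cxxc5 at 118 and 113 against 174 and 266, and Sox9 at 108 and 37.8 against 131 and 278. In the list of β-catenin destruction and Dishevelled genes, 23 were tested and none was called, with a median log2 fold change of 0.0037. Among 21 nuclear β-catenin partners there was likewise no call (median 0.090), and among 31 genes of the planar polarity and calcium branches there were the 2 named above (median -0.0056).

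**Figure D5:**
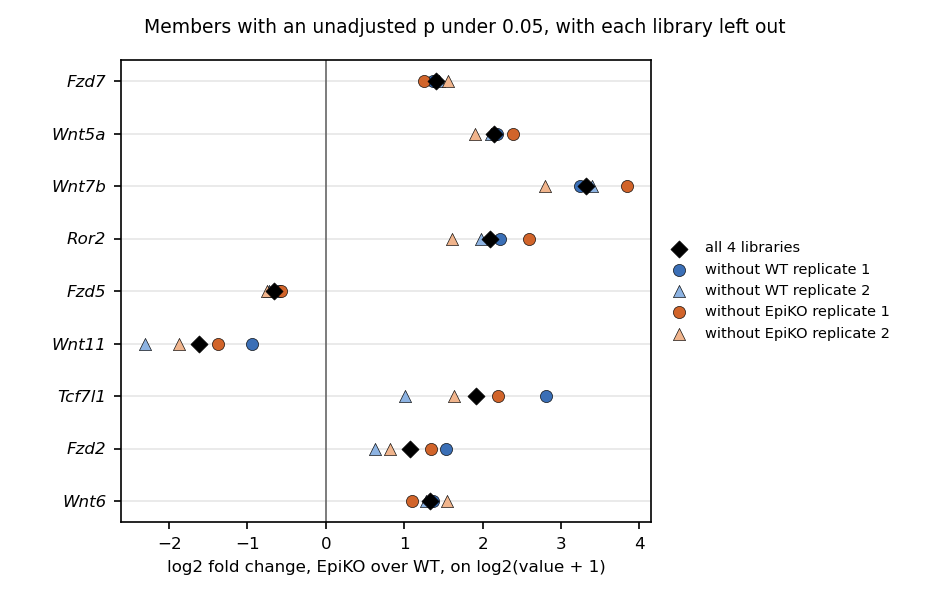
Log2 fold change of EpiKO over WT, on the log2(value + 1) scale, for the 9 members with an unadjusted p under 0.05, with all 4 libraries (black diamonds) and with each library left out. Fzd7 stays between 1.26 and 1.55 and Fzd5 between -0.75 and -0.58, while Wnt11 runs from -2.31 to -0.94 and Tcf7l1 from 1.01 to 2.81; no member crosses 0, which the non-overlap of their groups fixes in advance.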

How the data were processed

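mRNA of 4 libraries, enriched by poly-A, was sequenced. Per the submitters' processing notes reads were handled with STAR 2.5.2b, bcl2fastq 2.17, DESeq2 and featureCounts 1.5.0-p3 for mm10; the sources used here do not give the annotation or strand setting. What was deposited is a normalised signal: for each gene, reads divided by a size factor of the library. All of them (100%) were whole multiples of 1 read, within 1e-06 reads, which gave back 15884132 and 21244158 reads in WT and 17398176 and 19318481 in EpiKO. A read was worth 0.841 to 1.16.

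Genes that reached 10 in 2 or more libraries were tested as log2(value + 1) by limma 3.58.1 in R 4.3.3 with trend and robust moderation, two-sided, with no covariate; log2 fold changes on this scale understate changes of low genes. edgeR 4.0.16 (quasi-likelihood, TMM) called 120 genes and DESeq2 1.42.0 called 854 on the recovered reads. The steps were tested on simulated data. Levels per length used GENCODE M21 exons. Intervals and floors of 3 reads cover counting error only.

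The members and lists were chosen with earlier results of these data known. Named are all 45 members, called genes and the smallest p of each other pathway list, and leading markers; marker lists without a bearing on a member are left out of the text. Alternatives were pseudocounts, filters, 2 scalings, no trend, edgeR, DESeq2 and leaving out each library.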

Additional observations from a re-analysis of the deposited data

How the results depend on the processing

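No paired analysis was possible because the labels give no replicate numbers. Over the alternatives, 317 of 344 recomputed log2 fold changes of single members kept their direction and their side of the threshold, 16 lost a call, 1 gained one and 10 changed sign. The 118 calls over all genes became 31 with limma without trend and 854 with DESeq2, and 0 to 4 when 1 library was left out. The 3 member calls became 0 without trend (adjusted p between 0.0731 and 0.0923) and 0 in each fit with a library left out, and 2 under quantile normalization, where Wnt7b had an adjusted p of 0.0508. The 2 calls among other pathway genes became 0 without trend, 9 with DESeq2 and 0 with any library left out. The cause of these shifts was not tested, except that a fit of 3 libraries has fewer samples. The median of the described members, 0.34, lay between 0.11 and 0.66 with 1 library left out. Signs turned for members near 0: Axin1 was at -0.019 with equal library totals and between -0.095 and 0.11 with a library left out, and Wnt9a at -0.025 under quantile normalization and between -0.46 and 0.76. Leaving out a library moved Axin2 between -0.997 and 0.29, Fzd4 between -0.99 and 1.67 and Ctnnb1 between -0.016 and 0.18. Silence held for 12 members at a limit of 5, 23 at 20 and 15 when all 4 libraries had to be below 10. A filter at 50 left 20 members; without a filter 42 were tested and the same 3 were called.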
